A study of Mus musculus with 3 samples.

Results

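Hepatic stellate cells (HSCs) stimulated with FGF18 were compared directly with HSCs stimulated with TGFβ1, gene by gene, without the untreated culture as a go-between. The HSCs were the Nycodenz gradient fraction of livers from wild-type female C57BL/6 mice aged over 24 weeks. After 24 h of starvation in 0.2% FBS, cultures received 100 ng/mL recombinant human FGF18 or 1 ng/mL recombinant human TGFβ1 for a further 24 h, and another culture stayed untreated. The doses of the proteins differ, so the comparison is between these cultures and not between equal amounts of the ligands. A typical isolation drew on a pair of mice, and most but not all cells of the fraction showed vitamin A fluorescence. The deposited value of a gene in a condition is the authors' mean in TPM (transcript units scaled for the length of the gene and to a fixed sum per library). The labels list 1 record per condition, and the means are of 3 libraries each. Values of single libraries were not used here, so no spread, standard error, test or depth can be given for any value. A gene is called higher or lower here by the size of its ratio alone.

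Of 30651 gene symbols present in the tables of both stimuli, 9365 had a mean of the 2 stimulated levels of at least 10 TPM and were compared. They held 95.9% of all TPM with FGF18 and 95.0% with TGFβ1. The ratio is given as log2 of the FGF18 level plus 1 TPM over the TGFβ1 level plus 1 TPM, so that a positive value means higher with FGF18. Where a fold is printed, it is the quotient of the mean levels without the added 1 TPM. The genes nearest to the limit were *Sowahc* (9.08 TPM with FGF18 and 10.9 TPM with TGFβ1) just inside it and *Myo1d* (7.70 TPM with FGF18 and 12.3 TPM with TGFβ1) just outside.

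HSCs store vitamin A in the healthy liver and become matrix-producing, contractile myofibroblasts in fibrosis. TGFβ1 signals through its serine/threonine kinase receptors to SMAD2 and SMAD3, and is the best known inducer of collagen synthesis in these cells. FGF18 binds receptor tyrosine kinases of the FGF receptor family, which signal through RAS, MEK and ERK and are best known for promoting growth. Each pathway induces its own inhibitors, so that the level of those inhibitors is widely used as a readout of the pathway.

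Most genes had closely similar levels in the 2 stimulated cultures. The median log2 ratio was -0.05, with quartiles of -0.26 and 0.14, and 8013 of the 9365 genes (85.6%) lay within 0.5 of 0 on the log2 scale. At least 2-fold higher with FGF18 were 126 genes (1.35% of those compared), and at least 2-fold lower with FGF18 were 170 genes (1.82%). Together these were 296 genes (3.16%). In 49 of the 126 the TGFβ1 level was under 10 TPM, and in 88 of the 170 the FGF18 level was, so that these genes passed the limit only through the culture in which they were higher. A ratio above 0 was found in 3977 of all genes compared (42.5%). At least 4-fold apart were 19 genes higher with FGF18 (0.203%) and 32 lower (0.342%). The scatter of ratios narrowed with abundance. The median absolute deviation of the log2 ratio was 0.24 among the 2737 genes with a mean of 10 to 20 TPM and 0.11 among the 100 genes that averaged 1000 TPM or more. The median log2 ratio rose as well, from -0.14 in the former to 0.05 in the latter. Shares over all genes compared are not matched to any list for abundance. Of those 100 abundant genes, 4 were at least 2-fold apart, and all 4 were lower with FGF18, namely *Col3a1*, *Cxcl12*, *Bgn* and *Igfbp7*.

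**Figure D1:**
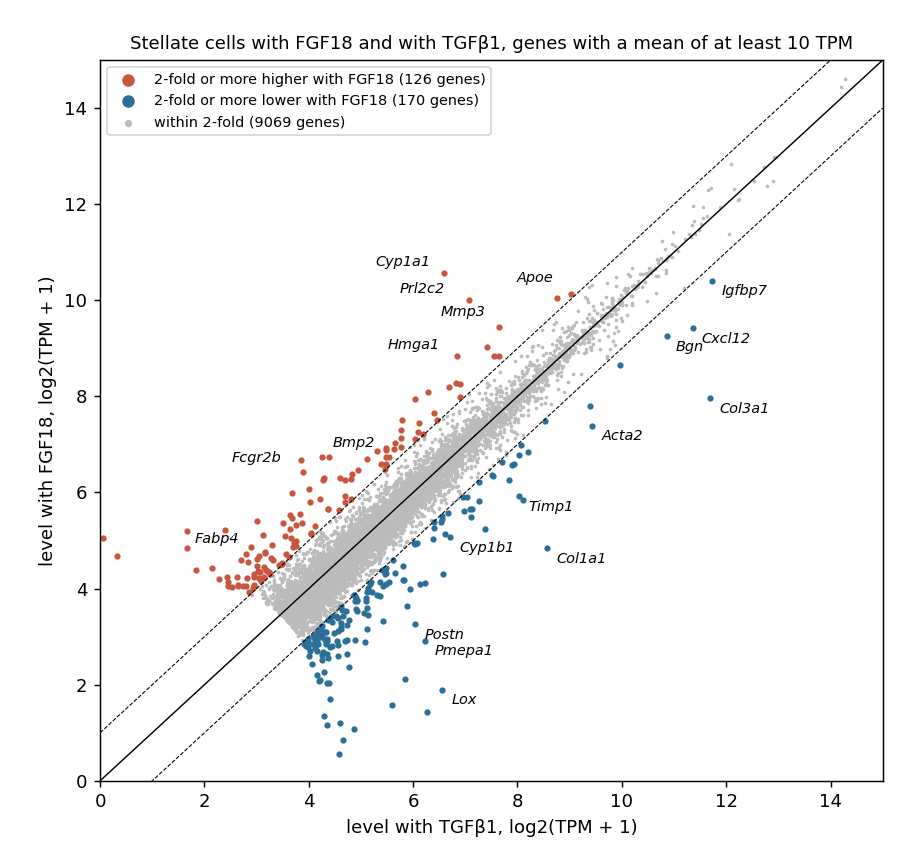
Level of each of the 9365 genes with FGF18 (vertical axis) against its level with TGFβ1 (horizontal axis), both as log2 of TPM plus 1. The solid line marks equal levels and the dashed lines 2-fold differences; 126 genes lie above the upper dashed line and 170 below the lower one, with *Cyp1a1* and *Prl2c2* far above and *Col3a1*, *Col1a1* and *Lox* far below.

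The level in untreated HSCs, which the ratio does not use, lay between the 2 stimulated levels for 77 of the 126 genes higher with FGF18 (61.1%) and for 111 of the 170 genes lower with FGF18 (65.3%), beside 31.2% of all genes compared. On the log2 scale the untreated level was nearer to the FGF18 level than to the TGFβ1 level in 79 of the 126 genes and in 115 of the 170, beside 4588 of all 9365 genes. Genes with a wide gap leave more room for another level to lie within it, so the share over all genes is given for scale only. The untreated level exceeded both stimulated levels in 35 of the genes higher with FGF18 and was under both in 41 of the genes lower with FGF18.

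**Figure D2:**
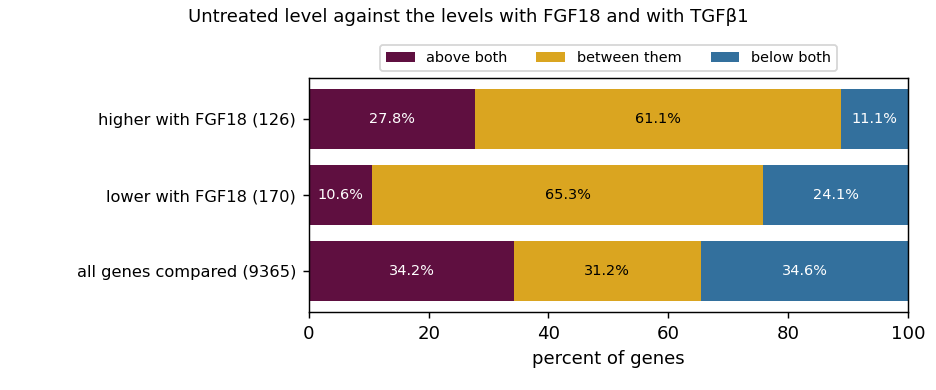
Percent of genes (horizontal axis) whose untreated level was above both stimulated levels, between them or below both, for the 126 genes at least 2-fold higher with FGF18, the 170 at least 2-fold lower with FGF18 and all 9365 genes compared. The share between the levels is 61.1% and 65.3% in the upper bars and 31.2% in the bottom bar.

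Genes were grouped by function in 53 lists, of which 48 had at least 5 genes above the limit. The median log2 ratio lay at least 0.5 from 0 in 9 of these 48, in 8 toward TGFβ1 and in 1 toward FGF18. The 8 were fibrillar collagens, portal fibroblast markers, contractile genes, matricellular proteins, macrophage markers, targets of TGFβ-SMAD signalling, ligands and receptors of the FGF and PDGF families, and elastic fibre genes. The list toward FGF18 was that of liver sinusoidal endothelial markers.

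**Figure D3:**
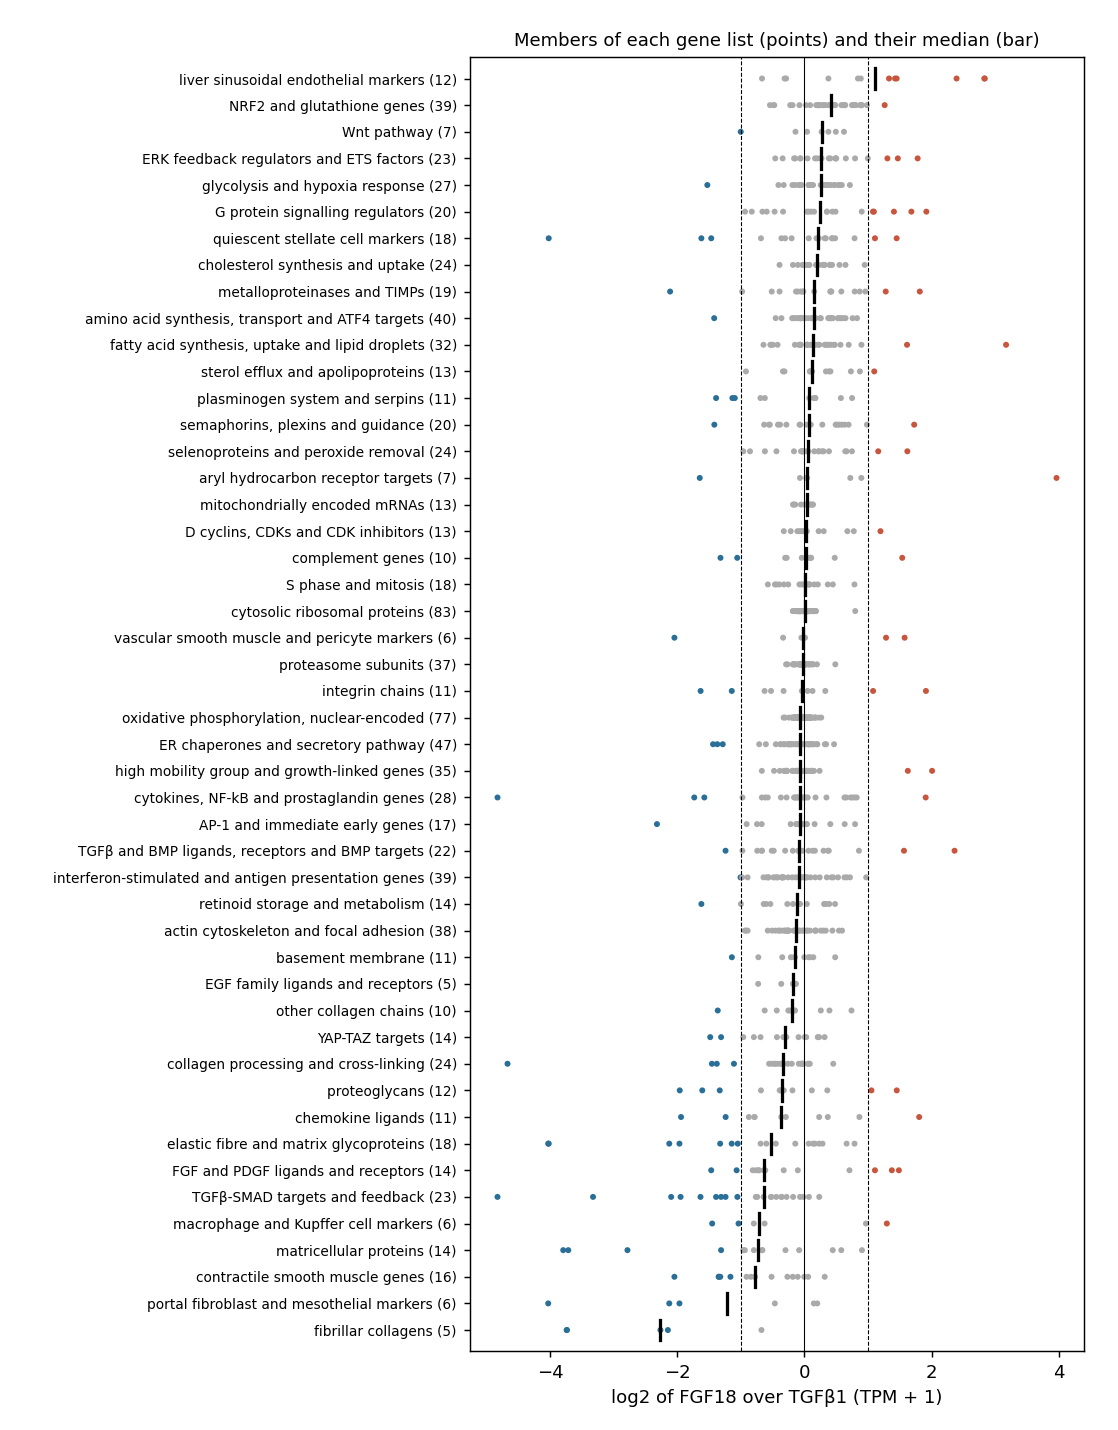
Log2 ratio of FGF18 over TGFβ1 (horizontal axis) for the members of the 48 lists with at least 5 genes, sorted by median, with the number of genes in brackets. Points are genes (red at least 2-fold higher with FGF18, blue at least 2-fold lower, grey within 2-fold) and black bars are list medians, which run from 1.11 for endothelial markers at the top to -2.26 for fibrillar collagens at the bottom.

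Fibrillar collagens were the list with the median farthest from 0 at the limit of 10 TPM. Of 11 chains, 5 were above the limit, and 4 of these were at least 2-fold lower with FGF18 and none was higher. Their median log2 ratio was -2.26 beside -0.05 over all genes compared, and with a limit of 1 TPM, which admits chains of low level, it was -0.68. *Col3a1* (chromosome 1, 45311538 to 45349706 in GRCm38), the chain of type III collagen, stood at 248 TPM with FGF18 and 3322 TPM with TGFβ1, and at 893 TPM in untreated cells. The partner chains of type I collagen had 27.7 TPM (*Col1a1*) and 56.6 TPM (*Col1a2*) with FGF18, against 380 TPM and 276 TPM with TGFβ1. In untreated cells they had 52.4 TPM and 68.7 TPM. *Col1a1* was therefore 13.7-fold and *Col1a2* 4.87-fold higher with TGFβ1, so the ratio between the chains differed between the cultures. *Col5a2*, a chain of the type V collagen that nucleates fibrils, had 36.5 TPM with FGF18 and 165 TPM with TGFβ1, and its partner *Col5a1* had 38.3 TPM and 61.9 TPM. The untreated level of all 5 chains lay between the 2 stimulated levels.

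Collagens that do not form fibrils did not share this gap. Of 10 such chains, 9 were within 2-fold, and the median log2 ratio was -0.19. *Col12a1*, a chain that decorates fibrils, was the exception with 12.4 TPM with FGF18 and 33.4 TPM with TGFβ1. The basement membrane chains *Col4a1* (401 TPM with FGF18 and 449 TPM with TGFβ1) and *Col4a2* (125 TPM and 139 TPM) were nearly level. The beaded-filament chain *Col6a1* leaned the other way, with 66.1 TPM with FGF18 and 39.2 TPM with TGFβ1. *Col6a1* was thus 2.39 times the level of *Col1a1* with FGF18 and 0.103 times its level with TGFβ1.

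The machinery that modifies, secretes and cross-links collagen was split. *Lox*, the lysyl oxidase that starts the covalent cross-linking of collagen and elastin, had 2.71 TPM with FGF18, 93.2 TPM with TGFβ1 and 4.73 TPM in untreated cells, a log2 ratio of -4.67. *Loxl2*, a related oxidase, had 55.2 TPM with FGF18 and 153 TPM with TGFβ1. *Bmp1*, the protease that trims the C-terminal propeptide, had 16.2 TPM and 43.7 TPM, and *Plod2*, the hydroxylase of telopeptide lysines, had 29.6 TPM and 64.9 TPM. These 4 of 24 genes were at least 2-fold lower with FGF18, and the other 20 were within 2-fold. Of the 4, *Lox* passed the limit only through its TGFβ1 level. The ratio was below 0 in 20 of the 24, with a median of -0.34. Prolyl hydroxylase and chaperone genes such as *P4ha1* (146 TPM with FGF18 and 195 TPM with TGFβ1) and *Serpinh1* (525 TPM and 674 TPM) leaned toward TGFβ1 within 2-fold, and *P4hb* (811 TPM and 775 TPM) and *Ppib* (552 TPM and 566 TPM) were almost level. Of 47 genes of the endoplasmic reticulum and the secretory route, 3 were at least 2-fold lower with FGF18. They were the retrieval receptor *Kdelr3* (49.4 TPM with FGF18 and 135 TPM with TGFβ1) and the transcription factors *Creb3l1* (15.7 TPM and 42.1 TPM) and *Creb3l2* (14.2 TPM and 35.9 TPM), which are known for raising secretory capacity. The chaperones *Hsp90b1* (755 TPM with FGF18 and 658 TPM with TGFβ1) and *Canx* (455 TPM and 420 TPM) were not among them.

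Elastic fibre genes and matrix glycoproteins included 7 of 18 that were at least 2-fold lower with FGF18 and none higher. *Eln*, the elastin gene, had 3.28 TPM with FGF18 and 17.7 TPM with TGFβ1, and *Fbn1*, the microfibril scaffold, had 16.6 TPM and 35.4 TPM. *Fbln2*, a fibulin that binds elastin, had 14.8 TPM and 60.8 TPM. *Adamtsl2*, a microfibril-associated protein, stood at 1.98 TPM with FGF18 and 47.4 TPM with TGFβ1, and the collagen-binding *Dpt* at 0.464 TPM and 22.9 TPM. Of the 7, *Eln*, *Adamtsl2* and *Dpt* passed the limit only through their TGFβ1 level. *Ecm1* ran against the rest of the list with 1077 TPM with FGF18 and 624 TPM with TGFβ1. *Fn1*, the fibronectin gene, was within 2-fold at 46.0 TPM with FGF18 and 70.3 TPM with TGFβ1.

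Matricellular proteins, which sit in the matrix and tune cell behaviour, had a median log2 ratio of -0.73, with 4 of 14 at least 2-fold lower with FGF18 and none higher. The CCN family members *Wisp1* (3.37 TPM with FGF18 and 56.3 TPM with TGFβ1), *Wisp2* (1.11 TPM and 28.2 TPM) and *Ctgf* (404 TPM and 1003 TPM) were among the 4, together with *Postn* (8.56 TPM and 64.7 TPM), the periostin gene. Of the 4, only *Ctgf* had at least 10 TPM with FGF18. The others passed the limit only through their TGFβ1 level. Osteopontin, the product of *Spp1* and the secreted protein that the study follows, was not among the genes that separate the stimuli. *Spp1* had 388 TPM with FGF18 and 285 TPM with TGFβ1, a log2 ratio of 0.44, against 52.1 TPM in untreated cells. *Thbs1*, the thrombospondin that activates latent TGFβ, was nearest to 2-fold in the other direction, with 138 TPM with FGF18 and 73.3 TPM with TGFβ1.

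Small proteoglycans went in both directions. *Bgn* (biglycan) had 608 TPM with FGF18 and 1853 TPM with TGFβ1, and *Ogn* (osteoglycin) had 5.08 TPM and 22.7 TPM. *Ogn* passed the limit only through its TGFβ1 level. *Prelp*, which links basement membrane to collagen, had 182 TPM with FGF18 and 87.2 TPM with TGFβ1. The untreated level was above both stimulated levels in 8 of the 12 proteoglycans above the limit, beside 34.2% of all genes compared. Among these were *Dcn* (2661 TPM with FGF18, 4276 TPM with TGFβ1 and 7021 TPM untreated) and *Lum* (111 TPM, 145 TPM and 397 TPM in the same order).

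Matrix-degrading proteases and their inhibitors had no common direction. Of 19 above the limit, 2 were at least 2-fold higher with FGF18, 1 was lower and 16 were within 2-fold, with a median of 0.15. *Mmp3* (chromosome 9, 7445822 to 7455975), the stromelysin that cleaves proteoglycans and activates other metalloproteinases, had 700 TPM with FGF18, 199 TPM with TGFβ1 and 156 TPM in untreated cells. *Timp3*, the inhibitor that is bound to matrix, had 456 TPM with FGF18 and 188 TPM with TGFβ1, whereas the soluble inhibitor *Timp1* had 59.5 TPM and 260 TPM. *Timp3* was thus 7.66 times the level of *Timp1* with FGF18 and 0.720 times its level with TGFβ1. *Mmp12* (81.6 TPM with FGF18 and 44.3 TPM with TGFβ1) and *Mmp10* (29.0 TPM and 16.3 TPM) leaned toward FGF18 within 2-fold, and *Mmp14* (169 TPM and 171 TPM), the membrane-bound collagenase, was level. In the plasminogen system, *Plat*, the tissue plasminogen activator, had 9.60 TPM with FGF18 and 22.3 TPM with TGFβ1. It passed the limit only through its TGFβ1 level.

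**Figure D4:**
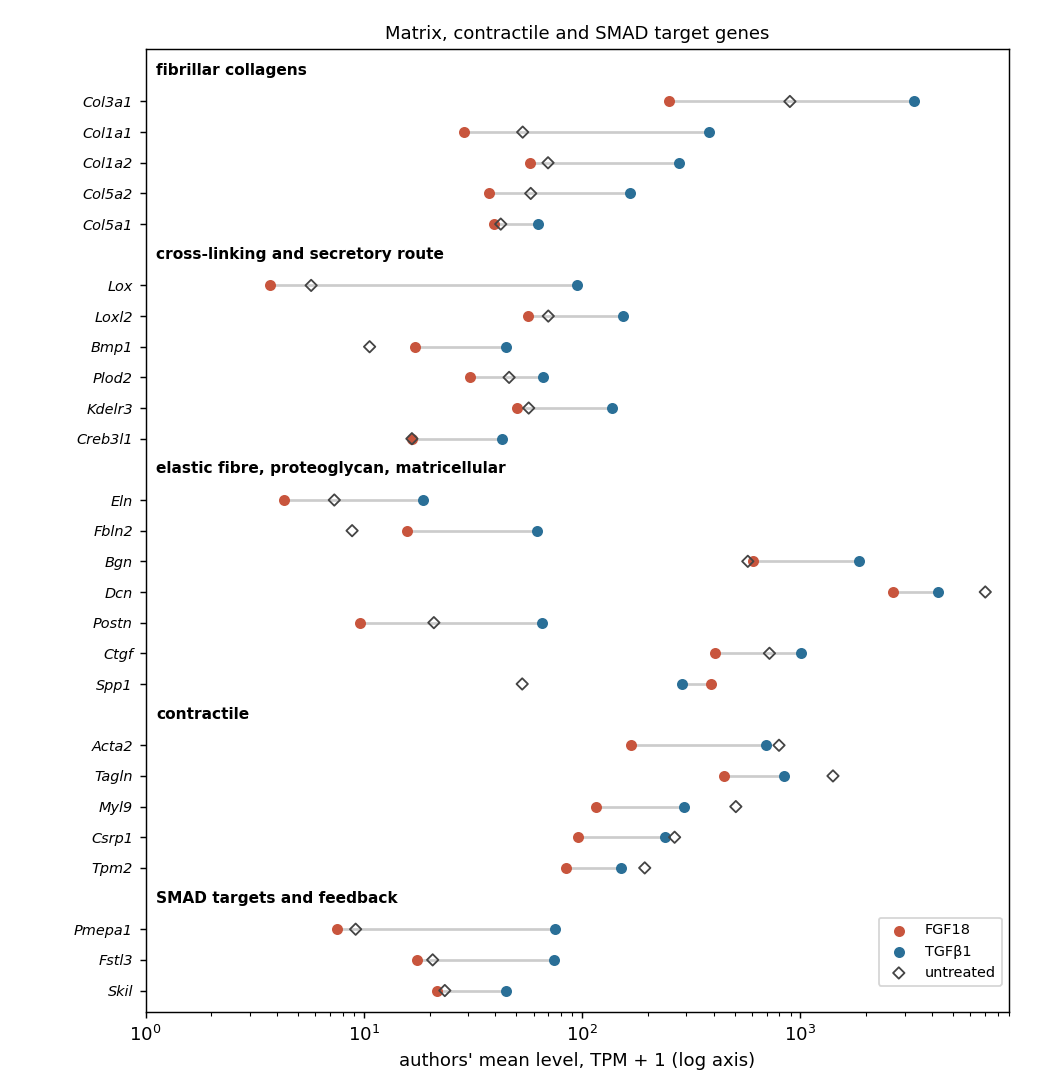
Authors' mean level, as TPM plus 1 on a log axis, of genes of the matrix, the contractile apparatus and SMAD signalling with FGF18 (red), with TGFβ1 (blue) and in untreated HSCs (open diamonds). Red points lie left of blue points in every gene shown except *Spp1*, and the diamonds lie right of both in *Dcn*, *Acta2*, *Tagln*, *Myl9*, *Csrp1* and *Tpm2*.

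Contractile genes of smooth muscle and myofibroblasts had a median log2 ratio of -0.78, with 5 of 16 at least 2-fold lower with FGF18 and none higher. *Acta2* (chromosome 19, 34241090 to 34255590), the smooth muscle actin that marks myofibroblasts, had 167 TPM with FGF18, 692 TPM with TGFβ1 and 796 TPM in untreated cells. *Myl9*, the regulatory light chain of myosin, had 114 TPM with FGF18, 292 TPM with TGFβ1 and 505 TPM untreated. *Csrp1* (94.2 TPM with FGF18 and 237 TPM with TGFβ1), *Csrp2* (48.3 TPM and 124 TPM) and *Fhl2* (19.0 TPM and 43.8 TPM), which encode LIM domain proteins of the cytoskeleton, completed the 5. *Tagln*, the transgelin gene, was just within 2-fold at 445 TPM with FGF18 and 837 TPM with TGFβ1, and it had 1408 TPM untreated. The untreated level was above both stimulated levels in 11 of these 16 genes, beside 34.2% of all genes compared. *Des*, the desmin gene, which quiescent HSCs also express, leaned slightly toward FGF18 at 116 TPM, against 93.0 TPM with TGFβ1.

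None of 38 genes of the wider actin cytoskeleton was at least 2-fold apart, beside 3.16% of all genes compared. The median of the 38 was -0.14. Nearest to 2-fold lower lay the nonmuscle myosin gene *Myh10* (8.59 TPM with FGF18 and 17.3 TPM with TGFβ1), *Palld* (41.9 TPM and 80.1 TPM) and *Actn1* (30.9 TPM and 58.2 TPM). Palladin and alpha-actinin, the products of the last pair, bundle stress fibres. *Tmsb4x*, which sequesters actin monomers, had 3964 TPM with FGF18 and 2633 TPM with TGFβ1. Among 11 integrin chains, *Itgb5* (17.0 TPM with FGF18 and 54.8 TPM with TGFβ1) and *Itga5* (58.6 TPM and 131 TPM), of the vitronectin and fibronectin receptors, were at least 2-fold lower with FGF18. *Itga8* (23.3 TPM with FGF18 and 5.46 TPM with TGFβ1) and the leukocyte chain *Itgb2* (34.0 TPM and 15.6 TPM) were at least 2-fold higher.

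The CArG box, the site of serum response factor in contractile and immediate early genes, was searched for in promoters because contractile genes leaned together. The motif is CC, 6 bases that are each A or T, and GG, on either strand. Promoters were the 250 bases before to 50 after the gene start in RefSeq (GRCm38.p6), which matched 7100 of the 9365 genes, 90 of the 126 higher with FGF18 and 75 of the 170 lower. The motif occurred in 1.81% of all 27025 RefSeq genes with a promoter and in 1.60% of those compared. It occurred in 1 of the 90 genes higher with FGF18, namely *Cyp1a1*, and in 3 of the 75 lower with FGF18, namely *Egr2*, *Fhl2* and *Myl9*. Among 13 contractile genes with a promoter it occurred in 4, which were *Fhl2*, *Myl9*, *Cnn2* and *Myl6*. The last pair was nearly level between the stimuli, with 204 TPM with FGF18 and 246 TPM with TGFβ1 for *Cnn2* and with 1242 TPM and 1337 TPM for *Myl6*. The matches in *Myl9*, *Fhl2* (at each of 2 gene starts), *Cnn2* and *Myl6* are shown with 40 bases on each side and the motif in capitals, so that genes that differ and genes that do not can be set side by side.
Myl9, chr2:156775263-156775352, plus strand, 161 bases before a gene start: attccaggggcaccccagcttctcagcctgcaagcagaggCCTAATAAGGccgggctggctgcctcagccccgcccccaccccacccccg
Fhl2, chr1:43163943-43164032, minus strand, 31 bases before a gene start: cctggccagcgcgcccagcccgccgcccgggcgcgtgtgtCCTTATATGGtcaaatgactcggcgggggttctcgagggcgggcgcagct
Fhl2, chr1:43196808-43196897, minus strand, 96 bases before another gene start: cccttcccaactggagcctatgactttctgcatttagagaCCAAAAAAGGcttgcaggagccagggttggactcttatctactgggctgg
Cnn2, chr10:79988504-79988593, plus strand, 56 bases before a gene start: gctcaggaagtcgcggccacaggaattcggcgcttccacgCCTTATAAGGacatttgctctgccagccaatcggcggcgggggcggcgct
Myl6, chr10:128493010-128493099, minus strand, 50 bases before a gene start: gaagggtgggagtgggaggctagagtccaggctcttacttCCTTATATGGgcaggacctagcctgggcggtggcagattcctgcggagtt
A match of letters is a description of the sequence and does not show binding. No exact match to this motif was found in the promoter window of *Acta2*. Sites with a G or C among the 6 bases, or outside the window, were not searched for in any gene.

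Targets and feedback inhibitors of TGFβ-SMAD signalling included 9 of 23 at least 2-fold lower with FGF18 and none higher, with a median of -0.64. Among the 9, *Pmepa1* and *Tgfb1* were some of those that passed the limit only through their TGFβ1 level. *Pmepa1*, which holds back SMAD activation, had 6.52 TPM with FGF18, 74.3 TPM with TGFβ1 and 8.16 TPM untreated. *Fstl3*, an inhibitor of activin, had 16.4 TPM and 73.4 TPM with the stimuli in the same order, and *Skil*, a SMAD co-repressor, had 20.6 TPM and 43.8 TPM. In all of these the FGF18 level was close to the untreated level. The ligand gene *Tgfb1* itself had 7.53 TPM with FGF18, 19.2 TPM with TGFβ1 and 7.63 TPM untreated. *Tgfbr2*, the ligand-binding receptor, was nearly 2-fold apart with 37.3 TPM with FGF18 and 74.3 TPM with TGFβ1. The inhibitory *Smad7* lay below the limit for comparison, with 4.30 TPM with FGF18 and 14.3 TPM with TGFβ1.

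Of 22 ligands, receptors and targets of the TGFβ and BMP branches, 2 were at least 2-fold higher with FGF18, *Bmp2* and *Id1*, and 1 was lower, *Tgfb1*, with a median of -0.08. *Bmp2* (chromosome 2) had 107 TPM with FGF18, 20.0 TPM with TGFβ1 and 50.2 TPM in untreated cells. *Id1*, an inhibitor of differentiation that is a classic BMP target, had 38.8 TPM with FGF18, 12.5 TPM with TGFβ1 and 20.1 TPM untreated. The related *Id3* was within 2-fold on the log2 scale used, with 310 TPM with FGF18 and 171 TPM with TGFβ1, both below the 499 TPM of untreated cells. The receptors *Acvr2a* (36.7 TPM with FGF18 and 39.1 TPM with TGFβ1) and *Acvr1* (13.6 TPM and 15.6 TPM) were level.

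Feedback inhibitors of ERK signalling and ETS factors had a median log2 ratio of 0.27, with 3 of 23 at least 2-fold higher with FGF18 and none lower. *Dusp6*, the phosphatase specific for ERK, had 76.6 TPM with FGF18, 27.1 TPM with TGFβ1 and 45.1 TPM in untreated cells. *Dusp4*, a nuclear phosphatase of the same family, had 49.7 TPM, 19.5 TPM and 23.6 TPM in that order, and the pseudokinase *Trib2* had 54.9 TPM, 15.3 TPM and 19.2 TPM. The Sprouty gene *Spry2* (17.0 TPM with FGF18 and 13.98 TPM with TGFβ1) and the ETS factor gene *Etv5* (11.9 TPM and 10.2 TPM), both often used as FGF readouts, were close to level. Below the limit, their relatives *Spry1* (6.34 TPM with FGF18 and 11.7 TPM with TGFβ1) and *Etv4* (0.790 TPM and 2.24 TPM) were on the TGFβ1 side and *Spry4* (9.20 TPM and 6.30 TPM) was on the FGF18 side. *Myc* was level as well, with 179 TPM with FGF18 and 173 TPM with TGFβ1.

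Immediate early genes and AP-1 subunits had no common direction. *Egr2* (3.11 TPM with FGF18 and 19.5 TPM with TGFβ1) was the only member of 17 at least 2-fold apart, beside 3.16% of all genes compared. It passed the limit only through its TGFβ1 level. *Junb* had 79.1 TPM with FGF18 and 149 TPM with TGFβ1, whereas the FOS-related *Fosl1* had 158 TPM and 90.8 TPM. *Jun*, *Jund* and *Klf6* differed by less than 1.5-fold. The AP-1 site TGANTCA occurred in the promoters of 8.97% of all RefSeq genes and of 6.23% of those compared. It was found in 10 of 90 genes higher with FGF18 (11.1%) and in 9 of 75 lower with FGF18 (12.0%), so that its share was about the same on both sides. Matches are shown for genes of each side that averaged 50 TPM or more and whose site lies before the gene start, with 40 bases on each side and the site in capitals. On the FGF18 side they are *Mmp3*, *Prl2c3*, *Tinagl1* (1054 TPM with FGF18 and 433 TPM with TGFβ1) and *Ctla2a* (87.9 TPM and 29.8 TPM). On the TGFβ1 side they are *Fblim1* (73.9 TPM with FGF18 and 154 TPM with TGFβ1) and *Prss23* (127 TPM and 268 TPM).
Mmp3, chr9:7445736-7445822, plus strand, 46 bases before a gene start: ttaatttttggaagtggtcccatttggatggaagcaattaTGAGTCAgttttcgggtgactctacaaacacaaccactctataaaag
Tinagl1, chr4:130175250-130175336, minus strand, 174 bases before a gene start: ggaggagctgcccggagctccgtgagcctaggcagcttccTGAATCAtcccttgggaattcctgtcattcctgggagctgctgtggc
Ctla2a, chr13:60936708-60936794, minus strand, 129 bases before a gene start: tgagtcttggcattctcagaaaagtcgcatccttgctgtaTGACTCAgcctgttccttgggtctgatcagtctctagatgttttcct
Prl2c3, chr13:12800242-12800328, minus strand, 209 bases before a gene start: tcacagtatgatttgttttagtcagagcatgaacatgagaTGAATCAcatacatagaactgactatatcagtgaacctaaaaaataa
Fblim1, chr4:141606086-141606172, minus strand, 80 bases before a gene start: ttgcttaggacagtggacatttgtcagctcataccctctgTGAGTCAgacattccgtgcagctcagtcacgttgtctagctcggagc
Prss23, chr7:89518304-89518390, minus strand, 146 bases before a gene start: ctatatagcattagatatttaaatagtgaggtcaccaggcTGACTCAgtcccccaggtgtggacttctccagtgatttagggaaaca
The CAGA box AGCCAGACA, a SMAD3 motif, was found in none of the 165 promoters of genes at least 2-fold apart and in 0.433% of all RefSeq genes, so these windows hold too few matches to compare.

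Growth factor receptors differed in kind. *Pdgfra* had 140 TPM with FGF18, 53.4 TPM with TGFβ1 and 73.2 TPM in untreated cells. *Pdgfrb*, the receptor by which HSCs are usually recognised, had 49.6 TPM with FGF18, 139 TPM with TGFβ1 and 66.3 TPM untreated. The ratio of *Pdgfra* to *Pdgfrb* was 2.82 with FGF18 and 0.385 with TGFβ1, with 1.10 in untreated cells between them. *Fgfr1* leaned toward TGFβ1 with 50.3 TPM with FGF18 and 89.1 TPM with TGFβ1, and *Fgfr2* was level at 103 TPM and 111 TPM, both under the 212 TPM of untreated cells. Among ligands, *Fgf2* (29.9 TPM with FGF18 and 63.7 TPM with TGFβ1) was at least 2-fold lower with FGF18. *Kitl* (40.0 TPM with FGF18 and 13.7 TPM with TGFβ1), the ligand of KIT, and *Hgf* (95.4 TPM and 43.7 TPM), the hepatocyte growth factor, were at least 2-fold higher. The gene for *Fgf18* itself was at 0.163 TPM with FGF18 and 1.14 TPM with TGFβ1, far under the limit. In the IGF system, the binding protein gene *Igfbp7* had 1359 TPM with FGF18 and 3408 TPM with TGFβ1.

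Receptors coupled to G proteins and their regulators included 5 of 20 at least 2-fold higher with FGF18 and none lower. They were the prostacyclin receptor *Ptgir* (17.2 TPM with FGF18 and 3.84 TPM with TGFβ1), the sphingosine phosphate receptors *S1pr1* (16.6 TPM and 4.50 TPM) and *S1pr3* (117 TPM and 43.7 TPM), the adenosine receptor *Adora2b* (15.1 TPM and 6.58 TPM) and *Lpar6* (16.9 TPM and 7.47 TPM). All of these but *S1pr3* passed the limit only through their FGF18 level. *Sphk1*, the kinase that makes sphingosine phosphate, went the other way with 17.2 TPM with FGF18 and 55.6 TPM with TGFβ1. The endothelin receptors divided as well. *Ednrb* had 1283 TPM with FGF18 and 687 TPM with TGFβ1, and *Ednra* had 35.5 TPM and 49.6 TPM, both within 2-fold. The signalling adaptor *Rasgrp2*, an exchange factor for RAP1, had 105 TPM with FGF18 and 18.0 TPM with TGFβ1. Among guidance genes, *Sema3a* (46.3 TPM with FGF18 and 13.3 TPM with TGFβ1) and the netrin receptor *Unc5b* (8.16 TPM and 23.4 TPM) were on opposite sides. *Unc5b* passed the limit only through its TGFβ1 level.

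Genes linked to growth were higher with FGF18 in a few members only. *Hmga1*, a chromatin protein of proliferating cells, had 457 TPM with FGF18, 113 TPM with TGFβ1 and 157 TPM in untreated cells, and its paralog *Hmga2* had 24.5 TPM, 7.27 TPM and 6.85 TPM. They were the only 2 of 35 high mobility group and growth-linked genes at least 2-fold apart, beside 3.16% of all genes compared. *Hmga2* passed the limit only through its FGF18 level. The prolactin family gene *Prl2c2* (chromosome 13), a growth-factor-inducible secreted hormone first named proliferin, had 1022 TPM with FGF18, 133 TPM with TGFβ1 and 118 TPM untreated. *Prl2c3* had 103 TPM, 33.6 TPM and 44.3 TPM. The genes of this family are nearly identical, so the split of reads between *Prl2c2* and *Prl2c3* is uncertain.

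Few cell cycle genes above the limit were at least 2-fold apart. Of 22 cyclins, CDKs and inhibitors, 9 were under the limit and 13 were compared. Of 43 genes of S phase and mitosis, 25 were under it and 18 were compared. *Cdkn2b*, the CDK inhibitor p15, was the only 1 of 13 cyclins, CDKs and inhibitors at least 2-fold apart, with 105 TPM with FGF18, 45.5 TPM with TGFβ1 and 54.8 TPM untreated. *Ccnd2* had 200 TPM with FGF18 and 116 TPM with TGFβ1. *Ccnd1*, the cyclin D1 gene that the study follows, had 11.8 TPM with FGF18, 1.07 TPM with TGFβ1 and 3.32 TPM untreated, and its mean of 6.43 TPM kept it out of the genes compared. None of 18 genes of S phase and mitosis above the limit was 2-fold apart, beside 3.16% of all genes compared. The median log2 ratio of the 18 was 0.01. *Mcm3* (19.9 TPM with FGF18 and 11.1 TPM with TGFβ1) and *Top2a* (10.8 TPM and 16.6 TPM) marked the ends of their range. *Mki67* was at 1.03 TPM with FGF18 and 1.98 TPM with TGFβ1.

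The largest ratio above a mean of 50 TPM was that of *Cyp1a1* (chromosome 9), a cytochrome P450 that is the classic target of the aryl hydrocarbon receptor. It had 1507 TPM with FGF18, 95.9 TPM with TGFβ1 and 1044 TPM in untreated cells, a 15.7-fold difference between the stimuli. *Cyp1b1*, another target of the same receptor, went the other way with 32.5 TPM with FGF18, 104 TPM with TGFβ1 and 41.8 TPM untreated. *Cyp1a1* was 46.5 times the level of *Cyp1b1* with FGF18 and 0.925 times with TGFβ1. The receptor gene *Ahr* had 30.3 TPM with FGF18 and 18.0 TPM with TGFβ1, and the target *Tiparp* was level at 54.5 TPM and 57.3 TPM. The 7 targets above the limit thus had no common direction, with a median of 0.04.

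Genes controlled by NRF2, the regulator of antioxidant defence, leaned toward FGF18 in small steps. Of 39 genes, 33 had a ratio above 0 and 6 below, with a median of 0.41. Over all genes compared 42.5% were above 0, a share not matched for abundance. Only *Gclc* of the 39 was at least 2-fold apart, beside 3.16% of all genes compared. *Gclc*, the rate-limiting subunit for glutathione synthesis, had 200 TPM with FGF18, 83.0 TPM with TGFβ1 and 64.4 TPM in untreated cells. *Nqo1* had 1233 TPM with FGF18 and 663 TPM with TGFβ1, and *Gsta4* had 665 TPM and 356 TPM. *Gstm1* (5038 TPM with FGF18 and 3233 TPM with TGFβ1) and *Gstp1* (5188 TPM and 3341 TPM) were among the largest differences in absolute level. *Prdx1*, a peroxidase, had 7334 TPM with FGF18 and 4373 TPM with TGFβ1. Of 24 selenoproteins and peroxide-removing enzymes, *Selenop* (522 TPM with FGF18, 169 TPM with TGFβ1 and 667 TPM untreated) and *Gpx3* (152 TPM, 67.7 TPM and 94.5 TPM) were at least 2-fold higher with FGF18. The superoxide dismutases *Sod3* (58.5 TPM with FGF18 and 115 TPM with TGFβ1) and *Sod2* (68.3 TPM and 106 TPM) leaned the other way within 2-fold.

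Lipid handling showed a few wide gaps within lists that were otherwise level. *Apoe*, the carrier of cholesterol out of cells, had 1118 TPM with FGF18, 522 TPM with TGFβ1 and 2089 TPM in untreated cells. *Fabp4* (27.6 TPM with FGF18 and 2.18 TPM with TGFβ1) and *Cd36* (37.1 TPM and 11.5 TPM) take up and carry fatty acids and are also strongly expressed by capillary endothelium. They were the only members of 32 fatty acid genes at least 2-fold apart, beside 3.16% of all genes compared. *Fabp4* passed the limit only through its FGF18 level. None of 24 genes of cholesterol synthesis and uptake was at least 2-fold apart. Of these 24, 19 had a ratio above 0, beside 42.5% over all genes compared, a share not matched for abundance. *Mvd* (18.2 TPM with FGF18 and 8.97 TPM with TGFβ1) lay nearest to 2-fold. Among retinoid genes, *Lrat*, the enzyme that forms the retinyl esters of quiescent HSCs, had 61.6 TPM with FGF18 and 43.9 TPM with TGFβ1, both under the 151 TPM of untreated cells.

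Glycolytic genes leaned slightly toward FGF18 with a median of 0.25 over 27 genes, as with *Pkm* (2408 TPM with FGF18 and 1738 TPM with TGFβ1) and *Pgk1* (247 TPM and 168 TPM). The lactate exporter *Slc16a3* was the only member at least 2-fold apart, beside 3.16% of all genes compared. It went the other way, with 13.3 TPM with FGF18 and 40.2 TPM with TGFβ1. Genes of serine synthesis leaned toward FGF18 within 2-fold, such as *Phgdh* (138 TPM with FGF18 and 90.0 TPM with TGFβ1) and *Shmt2* (166 TPM and 106 TPM). The stress gene *Ddit4* was the only 1 of 40 amino acid and ATF4 genes at least 2-fold apart, beside 3.16% of all genes compared. It had 7.38 TPM with FGF18 and 21.4 TPM with TGFβ1, and passed the limit only through its TGFβ1 level.

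The large housekeeping complexes had almost the same level in both cultures. Beside 3.16% of all genes compared, none of 83 cytosolic ribosomal protein genes was 2-fold apart. Their summed level was 68139 TPM with FGF18 and 67997 TPM with TGFβ1, against 60802 TPM in untreated cells, and the untreated level was under both stimulated levels in 76 of the 83, beside 34.6% of all genes compared. The exception in the ratio was *Rpl22l1*, a paralog of a ribosomal protein gene, with 325 TPM with FGF18 and 187 TPM with TGFβ1. None of 77 nuclear-encoded genes of oxidative phosphorylation, 37 proteasome subunits or 13 mitochondrially encoded mRNAs was 2-fold apart, with medians of -0.07, -0.03 and 0.04.

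Chemokines differed in direction. *Cxcl12*, the ligand of CXCR4, had 682 TPM with FGF18, 2618 TPM with TGFβ1 and 951 TPM in untreated cells. *Cxcl14* had 109 TPM with FGF18, 260 TPM with TGFβ1 and 47.4 TPM untreated. *Cxcl5*, a neutrophil attractant, had 272 TPM with FGF18, 77.2 TPM with TGFβ1 and 332 TPM untreated, and *Cxcl1*, of the same kind, had 198 TPM, 108 TPM and 218 TPM. The monocyte attractants *Ccl2* (459 TPM with FGF18 and 843 TPM with TGFβ1) and *Ccl7* (539 TPM and 931 TPM) leaned toward TGFβ1 within 2-fold. *Pf4*, a platelet chemokine, had 182 TPM with FGF18 and 54.2 TPM with TGFβ1.

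Among cytokine, NF-κB and prostaglandin genes, 1 of 28 was at least 2-fold higher with FGF18 and 3 were lower. The first was *Tnfaip2*, a TNF-inducible gene, with 244 TPM with FGF18, 64.5 TPM with TGFβ1 and 55.0 TPM in untreated cells. The 3 included *Tnfsf13b* (6.08 TPM with FGF18 and 22.5 TPM with TGFβ1), the B cell factor BAFF, and *Tnfrsf11b*, the osteoprotegerin gene. *Tnfsf13b* passed the limit only through its TGFβ1 level. *Tnfrsf11b* had 75.5 TPM with FGF18, 227 TPM with TGFβ1 and 218 TPM untreated. Of 10 complement genes, 2 were at least 2-fold lower with FGF18, among them *Cfb* (19.0 TPM with FGF18 and 49.0 TPM with TGFβ1), and *Cd59a* (33.0 TPM and 10.7 TPM) was higher. Of 39 interferon-stimulated genes, only *Oasl2* was at least 2-fold apart (23.3 TPM with FGF18 and 47.7 TPM with TGFβ1), beside 3.16% of all genes compared. In 34 of the 39 the untreated level was above both stimulated levels, beside 34.2% of all genes compared.

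**Figure D5:**
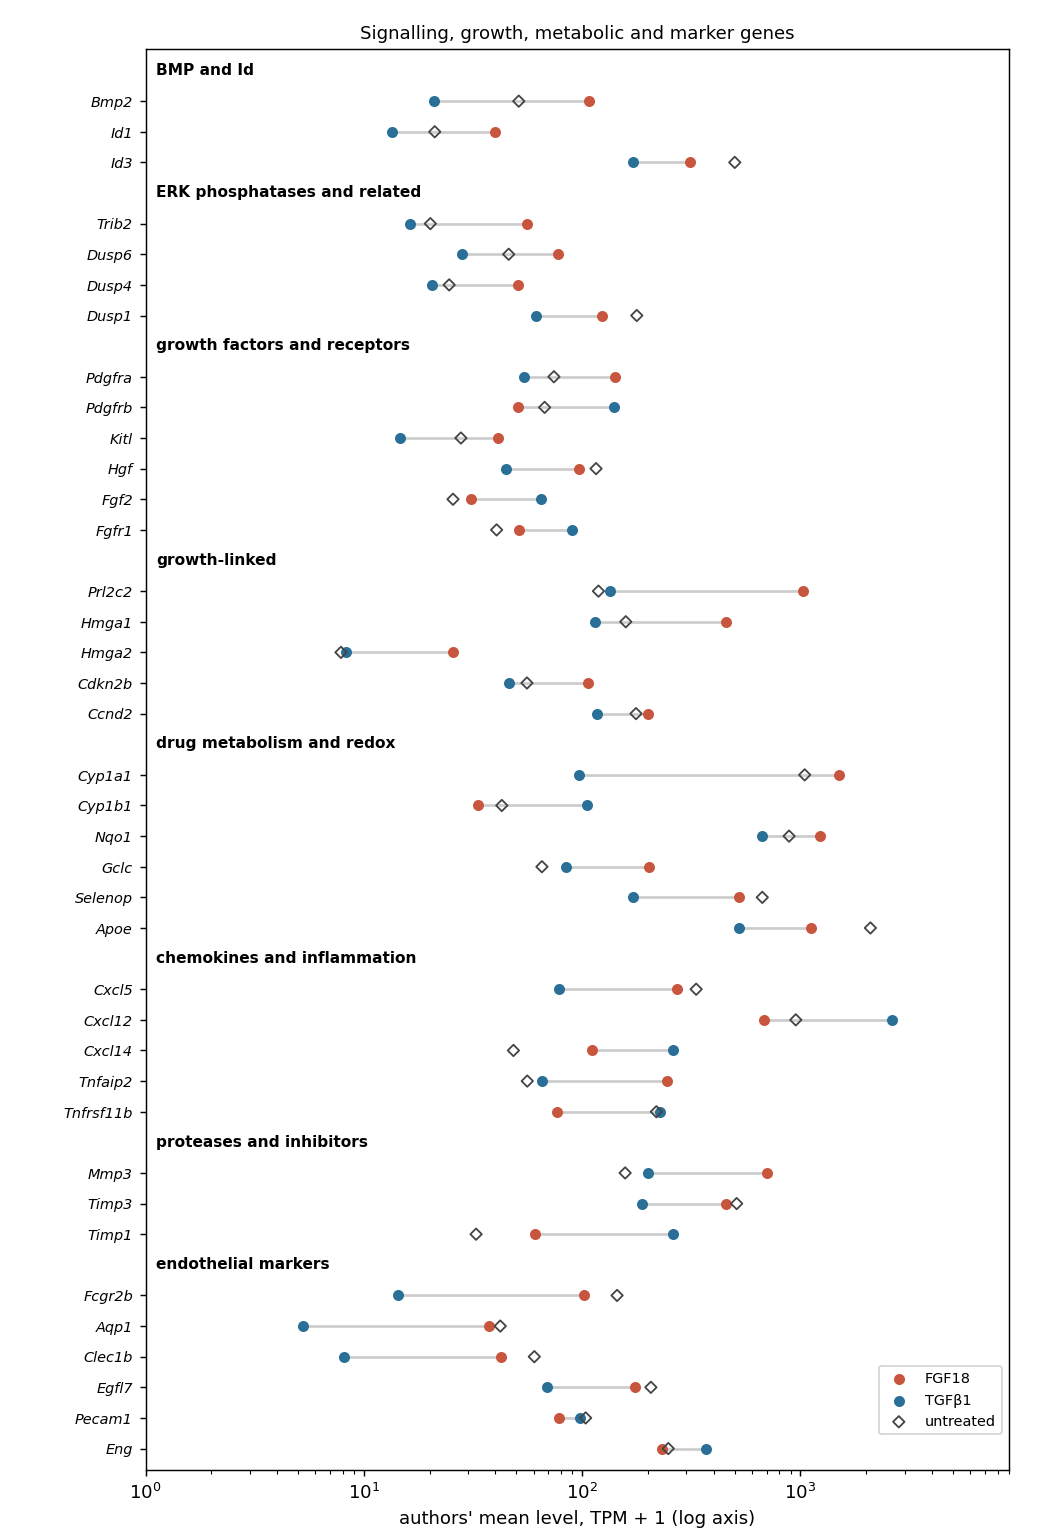
Authors' mean level, as TPM plus 1 on a log axis, of signalling, growth, metabolic, inflammatory and endothelial genes with FGF18 (red), with TGFβ1 (blue) and in untreated HSCs (open diamonds). Blue points lie right of red points in *Pdgfrb*, *Fgf2*, *Fgfr1*, *Cyp1b1*, *Cxcl12*, *Cxcl14*, *Tnfrsf11b*, *Timp1*, *Pecam1* and *Eng*, and left of them in the others.

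Markers of liver sinusoidal endothelium moved with the comparison. Of 30 markers, 12 were above the limit, and 6 of these were at least 2-fold higher with FGF18 and none lower. The inhibitory Fc receptor *Fcgr2b* had 101 TPM with FGF18, 13.3 TPM with TGFβ1 and 143 TPM in untreated cells, and the water channel *Aqp1* had 36.5 TPM, 4.29 TPM and 41.1 TPM. *Clec1b*, *Plvap*, *Egfl7* and *Tie1* were the others, of which *Plvap* is also in the list of quiescent HSC markers. *Aqp1*, *Clec1b* and *Tie1* passed the limit only through their FGF18 level. The pan-endothelial *Pecam1* did not share the gap, with 77.7 TPM with FGF18 and 96.8 TPM with TGFβ1, nor did *Eng*, with 231 TPM and 368 TPM. The defining markers *Kdr* (12.9 TPM with FGF18 and 4.61 TPM with TGFβ1), *Cdh5* (7.55 TPM and 2.52 TPM), *Clec4g* (12.4 TPM and 1.35 TPM) and *Stab2* (7.29 TPM and 9.08 TPM) had means below the limit, and *Lyve1* was under 1 TPM with each stimulus. The summed level of the 12 was 1552 TPM with FGF18, 1096 TPM with TGFβ1 and 1585 TPM untreated. In bulk RNA, fewer cells of a type and less RNA per cell cannot be told apart. The part of these cells in the other genes higher with FGF18 was not tested.

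Markers of other cell types were also examined. Of 22 macrophage markers, 6 were above the limit, with *Fcer1g* (23.2 TPM with FGF18 and 8.88 TPM with TGFβ1) higher and *Tyrobp* (6.48 TPM and 19.5 TPM) and *Lyz2* (44.8 TPM and 92.9 TPM) lower with FGF18. *Fcer1g* and *Tyrobp* passed the limit only through the culture in which they were higher. *Cd68* (85.0 TPM with FGF18 and 43.0 TPM with TGFβ1) leaned toward FGF18 within 2-fold. The ratio was above 0 in 2 of the 6 and below 0 in 4, so the list had no common direction. The summed level of the 6 was 186 TPM with FGF18, 211 TPM with TGFβ1 and 180 TPM untreated, and the defining markers *Adgre1* and *Clec4f* were under 1 TPM with each stimulus. None of 3 hepatocyte markers above the limit was 2-fold apart, and *Alb* was at 6.31 TPM with FGF18 and 6.57 TPM with TGFβ1. Portal fibroblast markers had a median of -1.22, with 3 of 6 at least 2-fold lower with FGF18 and none higher. The 3 were *Dpt*, *Eln* and *Fbln2*, which are also in the list of elastic fibre genes and matrix glycoproteins. *Dpt* and *Eln* passed the limit only through their TGFβ1 level. The summed level of the 6 was 184 TPM with FGF18, 268 TPM with TGFβ1 and 336 TPM untreated. *Thy1* (43.2 TPM with FGF18 and 60.0 TPM with TGFβ1) and *Cd34* (17.3 TPM and 15.5 TPM) were within 2-fold.

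Markers of quiescent HSCs had no common direction. Of 18 above the limit, 2 were at least 2-fold higher with FGF18 and 3 lower, with a median of 0.21. The 2 were *Hgf* and *Plvap*, and *Plvap* is also in the list of liver sinusoidal endothelial markers. *Lrat*, *Des* and *Reln* (234 TPM with FGF18 and 173 TPM with TGFβ1) leaned toward FGF18 within 2-fold, while *Pdgfrb* and *Adamtsl2* were among the 3 lower with it. *Adamtsl2* passed the limit only through its TGFβ1 level. *Cygb*, the globin of stellate cells, was level at 98.4 TPM with FGF18 and 113 TPM with TGFβ1.

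The kind of gene model also moved with the ratio. Of the genes compared, 8700 were protein-coding in GENCODE, and 111 of these (1.28%) were at least 2-fold higher and 117 (1.34%) at least 2-fold lower with FGF18. Of 497 pseudogenes, 7 were higher (1.41%) and 44 lower (8.85%), and their median log2 ratio was -0.31 beside -0.04 for protein-coding genes. Pseudogenes had a median mean level of 20.9 TPM and a median exon length of 435 bases, and their reads can be shared with a parent gene. The 2 largest ratios of all, of *Gm11518* (32.2 TPM with FGF18 and 0.0444 TPM with TGFβ1) and *Dynlt1-ps1* (24.5 TPM and 0.249 TPM), belong to processed pseudogenes and are uncertain for this reason. T cell receptor joining segments such as *Traj46* (34.0 TPM with FGF18 and 96.9 TPM with TGFβ1) are very short. Of 24 T cell receptor or immunoglobulin segments of any kind, 7 were at least 2-fold apart.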

How the data were processed

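Total RNA of HSCs was amplified to cDNA with template switching, and the authors mapped paired-end reads to mouse GRCm38 (mm10, per the labels) and compared the conditions with the web tool RaNA-seq. The aligner, counter and annotation release were not given in the sources used here. Levels in TPM were averaged by the authors and deposited as a mean per condition in 2 tables, FGF18 and untreated in 1 and TGFβ1 and untreated in the other. Every FGF18 and TGFβ1 value came out whole after multiplication by 3 at 6 decimals (tolerance 0.001 of the last decimal, 100% of values), as for a mean of 3 libraries, the number the methods state. Whether these came from separate isolations is not given. Other columns hold the authors' own comparisons with untreated cells (log2 fold changes, standard errors, statistics, p-values and adjusted p-values) and were not used. The methods give an approximate target depth per sample, but the depth reached in each library is unknown.

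Tables were joined on gene symbol, and for 53 and 52 symbols on several rows the highest row was kept. The untreated level differed between the tables for 8 symbols, 1 of them among the genes compared. A pseudocount of 1 TPM, a mean of at least 10 TPM and a fold of 2 were used, in Python 3.11.15 with pandas 2.3.3 and numpy 2.4.6, and figures were drawn with matplotlib 3.10.9. The calculation was tested on simulated data. Gene types and coordinates are from GENCODE M21 and promoters from RefSeq. The members, lists and tests were chosen with earlier results of these data known. Genes named are those the study follows, the 15 highest and 15 lowest ratios with a mean of at least 50 TPM, the 8 largest TPM differences each way, the 5 widest ratios of each list, and defining members of a pathway. Some genes that this rule selects are not reported here by name and stay in the counts. Alternatives were pseudocounts of 0.1 and 5, other limits on the mean, folds of 1.5 and 3, centring, rescaling and protein-coding genes only.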

Additional observations from a re-analysis of the deposited data

How the results depend on the processing

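The calls rest on a fold and a limit on the mean, and their number moved with both. Without a limit, 623 genes were at least 2-fold higher and 1273 at least 2-fold lower with FGF18, and with a limit of 1 TPM 512 and 1069. With a limit of 50 TPM, 44 were higher and 39 lower, so the majority toward TGFβ1 seen at 10 TPM (126 higher and 170 lower) was not seen among more abundant genes. A fold of 1.5 gave 378 higher and 591 lower, and a fold of 3 gave 46 and 56. Pseudocounts of 0.1 (139 and 195) and 5 (98 and 115), centring on the median (139 and 153), rescaling after leaving out mitochondrially encoded genes and the 20 most abundant genes (145 and 195), and protein-coding genes only (111 and 117) stayed within 1.5 times the main numbers. The share higher with FGF18 among genes apart was 32.4% at 1 TPM and 53.0% at 50 TPM. No called ratio of a named gene and no list median at least 0.5 from 0 changed sign under any of these settings. The median of fibrillar collagens moved to -0.68 with a limit of 1 TPM, where chains of low level joined it, and that of elastic fibre genes to -0.15 at 50 TPM. At 50 TPM the macrophage list kept only *Lyz2* (log2 ratio -1.04) and *Cd68* (0.97). The portal fibroblast list kept only *Thy1* (-0.47) and *Ly6a* (0.20) there. Neither list had a common direction at that limit. No paired analysis was possible because the files give 1 mean per condition, and leaving out a replicate could not be run for the same reason, so the weight of a single library in any ratio is unknown.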
